A study of Homo sapiens with 6 samples.

Results

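The 10 genes that encode integrin subunits of lung epithelial cells were followed in A549 cells after knock-down of KMT9α. They are the α subunits ITGA2, ITGA3, ITGA5, ITGA6 and ITGAV and the β subunits ITGB1, ITGB3, ITGB4, ITGB5 and ITGB8. They were chosen by name, and for each gene the RefSeq transcript with the most counts in the 6 samples together was used. These 10 are part of 26 integrin subunits and of 23180 gene symbols with a row in the deposited table. A549 is an established human lung adenocarcinoma cell line, labelled wild type and at passage 11 in every sample. Cells were transfected with a control siRNA (siControl, 3 samples) or with an siRNA against KMT9α (siKMT9α, 3 samples) at 65 nM and were harvested for RNA sequencing 3 days later. KMT9α, encoded by N6AMT1, is the catalytic subunit of a histone methyltransferase that monomethylates a lysine of histone H4. The comparison asked which integrin transcripts differ between cells with and without the knock-down. The groups are 1 cell line and 1 siRNA each. The labels call the samples biological replicates without saying how they were separated, so the p-values rest on the spread between these samples alone. In edgeR's test, the spread of each gene is estimated in part from that of all genes tested.

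Integrins are receptors in the cell membrane, built from an α and a β subunit, that hold cells to the extracellular matrix and pass signals across the membrane in both directions. The α subunit largely sets the ligand. ITGA2 with ITGB1 binds collagen, ITGA3 and ITGA6 bind laminin, and ITGA5 with ITGB1 binds fibronectin. ITGAV pairs with several β subunits and binds ligands with an Arg-Gly-Asp motif, among them vitronectin and latent TGF-β. In lung epithelium, ITGA6 with ITGB4 forms the hemidesmosomes that anchor cells to the basement membrane.

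CPM are counts scaled to the sequencing depth of each sample and adjusted by its TMM normalization factor. N6AMT1 was measured at 10.2, 10.9 and 11.4 CPM in the siControl samples and at 2.87, 3.22 and 3.35 CPM in the siKMT9α samples. This is a log2 fold change of -1.77 (standard error, SE, 0.12). Samples held 15551778 to 18568639.5 counts (siControl) and 13740097 to 19832395.5 counts (siKMT9α) when each gene was counted once. The summed level of 6 epithelial markers was 4402 to 4886 CPM with siControl and 2943 to 3130 CPM with siKMT9α. Of these 6, 4 fell by edgeR's test, with log2 fold changes of -2.76 (EPCAM, an epithelial adhesion molecule), -1.28 (KRT8), -0.75 (KRT18) and -0.68 (KRT19), the last 3 keratins of simple epithelia. EPCAM had 10, 6.5 and 10.5 counts with siKMT9α, and those samples alone would not have passed it through the filter on low counts. Its place in the test thus depends on the group where it was higher. CDH1, which encodes E-cadherin, rose by 1.34 on the log2 scale, and the keratin KRT7 was not called (0.0095, adjusted p = 0.876). Of 4 markers of alveolar lung epithelium, none passed the filter on low counts, SFTPA1 was at 0 in all samples, and the 4 summed to at most 0.62 CPM. The endothelial markers (3) summed to at most 0.80 CPM, the leukocyte markers (4, CD3E at 0) to at most 1.33 CPM and the fibroblast markers (5) to 5.06 to 5.95 CPM with siControl and 3.73 to 4.76 CPM with siKMT9α. The part of these shifts in the integrin results was not tested. In bulk RNA, fewer cells of a kind and less RNA per cell cannot be told apart.

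All 10 subunits passed the filter on low counts, and 9 had an adjusted p under 0.05 (edgeR, quasi-likelihood F test, corrected by the Benjamini-Hochberg method). Over all 13877 genes tested this share was 75.6%, so a call by itself was common in these data. In all, 8 subunits were higher after knock-down (37.1% of all genes tested) and ITGA6 was lower (38.5% of all genes tested). The threshold used in the study is an unadjusted p under 1e-08 with a log2 fold change over 0.26 in size. Applied to the quasi-likelihood test, it was passed by 4 subunits, ITGA2, ITGA3, ITGA6 and ITGAV (24.2% of all genes tested). The study names edgeR but not which of its tests, and by edgeR's likelihood-ratio test 6 subunits passed. The groups did not overlap for 8 subunits (77.0% of all genes tested). Log2 fold changes beyond 1 in size were measured for ITGA2, ITGA3, ITGA6, ITGAV, ITGB3 and ITGB8, and for 20.4% of all genes tested. The median log2 fold change was 0.86 over the 10 subunits and -0.01 over all genes tested. The siControl samples alone would not have passed ITGB8 through the filter on low counts, so its place in these counts depends on the group where it was higher.

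**Figure D1:**
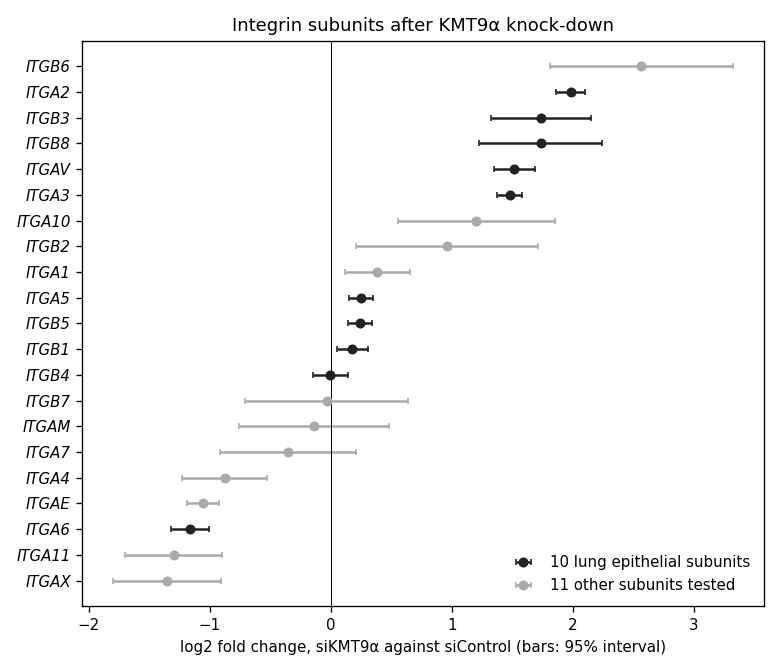
Log2 fold change of siKMT9α against siControl (horizontal axis) for the 21 integrin subunits tested, with 95% intervals as bars. Black points are the 10 lung epithelial subunits, of which ITGA2 lies farthest to the right at 1.98 and ITGA6 farthest to the left at -1.17, and grey points are the other 11 subunits.

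ITGA2 is the collagen-binding α2 subunit (transcript NM_002203, hg19 chr5:52285156-52390609). The siControl samples held 96.9, 84.5 and 85.8 CPM, and the siKMT9α samples held 342.2, 344.9 and 369.4 CPM. Every knock-down sample lay far above every control, with no overlap. ITGA2 rose 3.95-fold, a log2 fold change of 1.98 (SE 0.06, adjusted p = 3.25e-16).

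The laminin-binding α3 subunit ITGA3 (NM_002204, chr17:48133340-48167849) was the most abundant α subunit in both groups when levels were divided by transcript length. It had 444.4, 405.1 and 439.1 CPM with siControl and 1199, 1176 and 1213 CPM with siKMT9α. The samples of each group lay close together and the groups did not overlap. Its level rose 2.78-fold (log2 fold change 1.48, SE 0.05, adjusted p = 3.17e-15).

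ITGA6, the other laminin-binding α subunit (NM_000210, chr2:173292314-173371181), was the only member that fell. Control samples held 164.3, 134.2 and 150.5 CPM, against 62.2, 62.4 and 74.7 CPM after knock-down. The highest knock-down sample was under the lowest control. The level was 2.24-fold lower (log2 fold change -1.17, SE 0.07, adjusted p = 3.05e-11).

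ITGAV (NM_002210, chr2:187454790-187545628), the α subunit of the Arg-Gly-Asp receptors, had 127.8, 104.1 and 112.9 CPM in the controls and 302.3, 304.0 and 379.9 CPM after knock-down. The siKMT9α samples were all above the controls, and replicate 3 was the highest of them. ITGAV rose 2.86-fold (log2 fold change 1.52, SE 0.08, adjusted p = 2.09e-12). The fibronectin receptor subunit ITGA5 (NM_002205, chr12:54789045-54813050) moved much less, from 129.8, 119.2 and 123.9 CPM to 150.1, 143.8 and 149.6 CPM. Its groups did not overlap, but the rise was 1.19-fold (log2 fold change 0.25, SE 0.05, adjusted p = 0.000129), below the median size of change of all genes, 0.47.

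Among the β subunits, ITGB1, the common partner of ITGA2, ITGA3, ITGA5 and ITGA6 (NM_002211, chr10:33189246-33247293), had 2944, 2511 and 2595 CPM with siControl and 2955, 2932 and 3220 CPM with siKMT9α. The ranges overlapped, because siKMT9α replicate 2 lay under siControl replicate 1. ITGB1 had a log2 fold change of 0.18 (95% interval 0.05 to 0.31, adjusted p = 0.0127). This call was lost without siControl replicate 2 (0.14, adjusted p = 0.0707), without siControl replicate 3 (0.16, adjusted p = 0.066) and when samples were scaled by library size alone (0.07, adjusted p = 0.276), all by edgeR. Library size alone moved the median of all genes to -0.12. Relative to that median, the difference in ITGB1 was 0.19 under both scalings. GENCODE also lists a pseudogene copy, ITGB1P1, and how reads shared with it were counted is not given in the sources used here.

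ITGB5, a partner of ITGAV (NM_002213, chr3:124481795-124606144), had 336.5, 308.6 and 329.5 CPM in the controls and 385.3, 377.2 and 387.8 CPM after knock-down. The groups did not overlap, and the rise was 1.18-fold (log2 fold change 0.24, SE 0.05, adjusted p = 0.00016). ITGB4, the hemidesmosomal partner of ITGA6 (NM_001005731, chr17:73717516-73753899), had 25.4, 25.0 and 24.9 CPM in the controls and 24.3, 24.3 and 26.3 CPM after knock-down. The ranges overlapped, and the 95% interval of the log2 fold change ran from -0.15 to 0.14 (adjusted p = 0.965). ITGB4 came out lower, at -0.20 (adjusted p = 0.0096), in an edgeR fit with offsets for transcript length, and at -0.13 (adjusted p = 0.0671) with offsets for GC content and length.

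ITGB3 and ITGB8, both partners of ITGAV, were near the bottom of the range. ITGB3 (NM_000212, chr17:45331208-45390077) had 26.5, 15 and 21.5 counts with siControl and 55, 46 and 78.5 counts with siKMT9α. ITGB8 (NM_002214, chr7:20370725-20455382), which takes part in the activation of latent TGF-β, had 18.5, 12 and 10 counts and then 29.5, 32.5 and 51.5 counts. In CPM the groups did not overlap for either gene. ITGB3 rose 3.33-fold (log2 fold change 1.74, SE 0.20, adjusted p = 1.79e-07), and ITGB8 also 3.33-fold (1.73, SE 0.24). The value of ITGB8 is given as a description, since the siControl samples alone would not have passed it through the filter on low counts. Both standard errors were several times those of the abundant subunits. The GENCODE annotation places 2266 exon bases of another gene on the same strand within the 6829 exon bases of ITGB3, so reads there cannot be told apart. On the opposite strand, annotated genes share 48 to 401 exon bases with ITGA5, ITGA6, ITGAV, ITGB1 and ITGB8, and whether the counting used strand is not given in the sources used here.

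To compare levels between subunits, CPM was divided by transcript length in kilobases. In the controls the order was ITGB1 (699 ± 59.7 CPM per kb, SD, n = 3), ITGB5 (97.2 ± 4.35), ITGA3 (86.3 ± 4.29), ITGA5 (29.7 ± 1.27), ITGA6 (26 ± 2.62), ITGAV (16.5 ± 1.71), ITGA2 (11.4 ± 0.87), ITGB4 (4.46 ± 0.04), ITGB3 (0.24 ± 0.05) and ITGB8 (0.08 ± 0.02). Only ITGA5 and ITGA6 overlapped among neighbours in this order. After knock-down ITGA3, at 240.4 ± 3.81 CPM per kb, passed ITGB5 (114.7 ± 1.66), and ITGAV (47.1 ± 6.35) and ITGA2 (45.1 ± 1.92) passed ITGA5 (35.3 ± 0.83) and ITGA6 (11.5 ± 1.24). ITGAV and ITGA2 were then the only neighbours whose ranges overlapped.

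**Figure D2:**
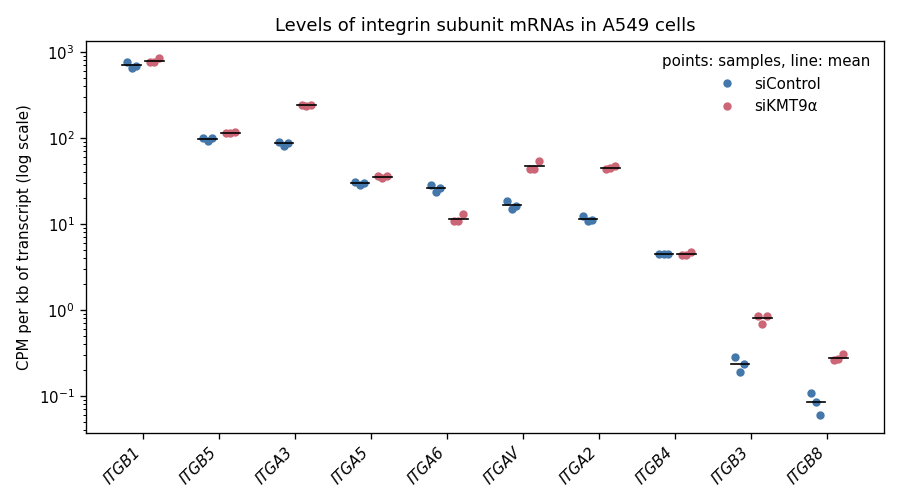
Level of each of the 10 subunits in CPM per kb of transcript on a log scale (vertical axis), with 1 point per sample and a line at each group mean. ITGB1 stands highest in both groups, ITGA2, ITGA3, ITGAV, ITGB3 and ITGB8 stand higher in siKMT9α, and ITGA6 stands lower.

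The 5 α subunits together went from 169.9 ± 10.4 to 379.4 ± 13.2 CPM per kb (ratio 2.23, exact permutation p = 0.1), whereas the 5 β subunits together went from 800.9 ± 63.4 to 911 ± 43.1 (ratio 1.14, exact permutation p = 0.1). With 3 samples against 3, 0.1 is the smallest p that this two-sided test can give. Each of these sums separated the groups under TMM scaling. For the β subunits the gap was narrow, with 872.3 in siControl replicate 1 and 882.0 in siKMT9α replicate 2. Whether the β sum, which is mostly ITGB1, stays separate under library size alone was not tested. Within the α subunits, the share of ITGA3 went from 50.9% ± 0.97 to 63.4% ± 1.34, that of ITGA2 from 6.71% ± 0.26 to 11.9% ± 0.16 and that of ITGAV from 9.69% ± 0.45 to 12.4% ± 1.23. The share of ITGA6 went from 15.3% ± 0.61 to 3.04% ± 0.22, and that of ITGA5 went from 17.5% ± 0.37 to 9.30% ± 0.25 although its own level was higher. Within the β subunits, ITGB1 held 87.2% ± 0.59 with siControl and 86.8% ± 0.46 with siKMT9α, with overlapping ranges.

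Ratios within a sample do not depend on how samples are scaled to each other. Pairs of subunits that form receptors, or share a partner, were compared, 9 in all. The log2 ratio of ITGA2 to ITGB1 went from -4.91 ± 0.02 to -3.11 ± 0.02, a difference of 1.81, and that of ITGA3 to ITGB1 from -2.64 ± 0.08 to -1.34 ± 0.06, a difference of 1.30. The ratio of ITGA6 to ITGB1 differed by -1.35 and that of ITGA6 to ITGB4 by -1.16. ITGAV was higher against ITGB5 by 1.27. The ratio of ITGB4 to ITGB1 differed by -0.19. These 6 ratios did not overlap between groups (exact permutation p = 0.1, adjusted p = 0.15 over the 9 ratios). Of all single genes tested, 77.0% did not overlap, so separation by itself was common in these data. The share among ratios of other genes was not computed. The other 3 overlapped. ITGAV against ITGB3 differed by -0.25 and against ITGB8 by -0.25 (exact permutation p = 0.2, adjusted p = 0.225), and ITGA5 against ITGB1 by 0.07 (exact permutation p = 0.3). Single samples decided much of these values. ITGAV against ITGB8 was at -0.03 without siControl replicate 3 and at -0.38 without siControl replicate 1, ITGAV against ITGB3 was at -0.14 without siKMT9α replicate 1, and ITGA5 against ITGB1 ranged from 0.03 to 0.10 over the 6 samples left out in turn.

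**Figure D3:**
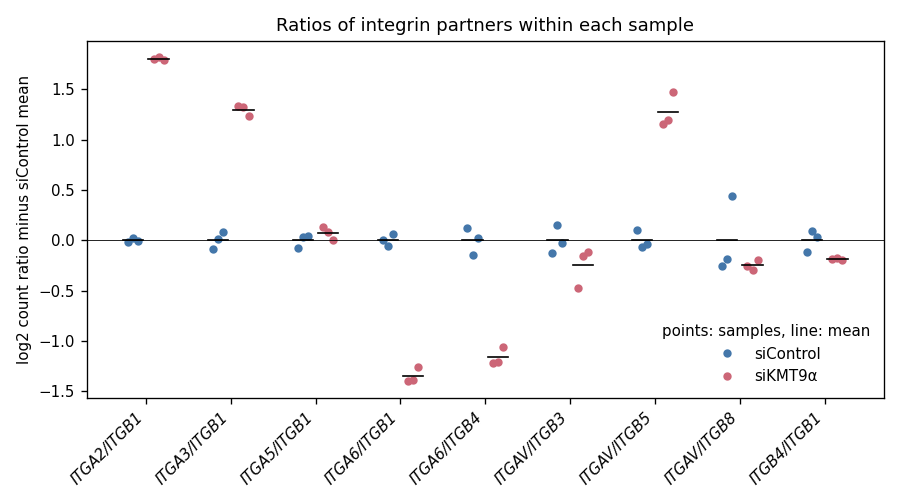
Log2 ratio of the counts of 2 subunits in each sample minus the siControl mean (vertical axis) for 9 pairs, with 1 point per sample and a line at each group mean. ITGA2 and ITGA3 against ITGB1 and ITGAV against ITGB5 lie above all control samples, and ITGA6 against ITGB1 and ITGB4 lies below them.

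ITGA3 and ITGA6 each have an alternative exon near the 3′ end of the coding sequence, exon A, that carries its own stop codon. With it the protein ends in the A form of the cytoplasmic tail, and without it the next exon gives the B form. The deposited table holds a RefSeq transcript with and another without this exon for both genes, so the counts of exon A are the difference between both rows. This comparison was chosen after the transcript counts had been seen. The coding parts of both exons are shown because the results below turn on them. They are read from GRCh37, 5′ to 3′ on the plus strand, with the last 20 intron bases in lower case and the exon up to its stop codon in capitals. For ITGA6 (chr2:173366480-173366607) it is exon 25 of 26 of GENCODE transcript ITGA6-212, and for ITGA3 (chr17:48165569-48165699) exon 25 of 26 of ITGA3-202.
ITGA6 exon A: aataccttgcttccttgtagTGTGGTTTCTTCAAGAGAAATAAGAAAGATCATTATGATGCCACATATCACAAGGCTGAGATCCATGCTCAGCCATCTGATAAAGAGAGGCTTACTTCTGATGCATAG
ITGA3 exon A: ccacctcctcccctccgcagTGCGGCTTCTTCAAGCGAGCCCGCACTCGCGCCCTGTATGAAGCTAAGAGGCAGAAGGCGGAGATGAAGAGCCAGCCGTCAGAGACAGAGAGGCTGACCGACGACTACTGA
The whole exon is 130 bases in ITGA6, 108 of them coding with the stop TAG, and 142 bases in ITGA3, 111 of them coding with the stop TGA.

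ITGA6 exon A had 62, 33 and 45.5 counts in the siControl samples and 0.5, 1 and 3.5 counts in the siKMT9α samples. The rest of the transcript had 3032.5, 2140 and 2848 counts and then 822.5, 853.5 and 1423.5 counts. Exon A thus had 2.05, 1.54 and 1.60 counts per 100 shared counts with siControl and 0.06, 0.12 and 0.25 with siKMT9α. The exact (Clopper-Pearson) 95% intervals, which cover counting error only, reached down to 1.06 in the controls and up to 0.718 after knock-down, so the groups were separate beyond counting error. The means were 1.73 ± 0.28 and 0.14 ± 0.09 (SD, n = 3), 12.2-fold apart (exact permutation p = 0.1, the smallest possible). This fold rests on few counts after knock-down and was 19.4 without siKMT9α replicate 3, and between 9.52 and 12.9 without any other sample. Per base, exon A had 0.76 ± 0.12 of the density of the rest of the transcript in the controls and 0.06 ± 0.04 after knock-down. The exon length used here was 128 bases, the difference in length between both transcripts. This ratio is not the share of transcripts with exon A. When exon A and the shared part were entered as separate features, edgeR gave a log2 fold change of -1.14 for the shared part (SE 0.07, adjusted p = 3.57e-11). The value for exon A was -4.49 (95% interval -5.41 to -3.57), given as a description, since exon A passed the filter on low counts only through the siControl samples. The gene PDK1-AS1, on the opposite strand, spans this exon by an intron only.

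Exon A of ITGA3, whose level rose, had 3.92, 3.83 and 4.07 counts per 100 shared counts in the controls and 3.96, 3.70 and 3.57 after knock-down. The groups overlapped (3.94 ± 0.12 and 3.74 ± 0.20, exact permutation p = 0.3). Per base, exon A of ITGA3 had 1.36 ± 0.04 of the density of the rest in the controls and 1.29 ± 0.07 after knock-down. Both values lie above 1, which a share of transcripts cannot. The log2 fold change was 1.40 for exon A (SE 0.07, adjusted p = 1.41e-12) and 1.48 for the shared part (SE 0.05, adjusted p = 2.96e-15). Whether the effects on exon A differed between the genes was not tested. Other transcripts of ITGAV, ITGB1 and ITGB4 in the table had log2 fold changes within 0.03 of those given above.

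**Figure D4:**
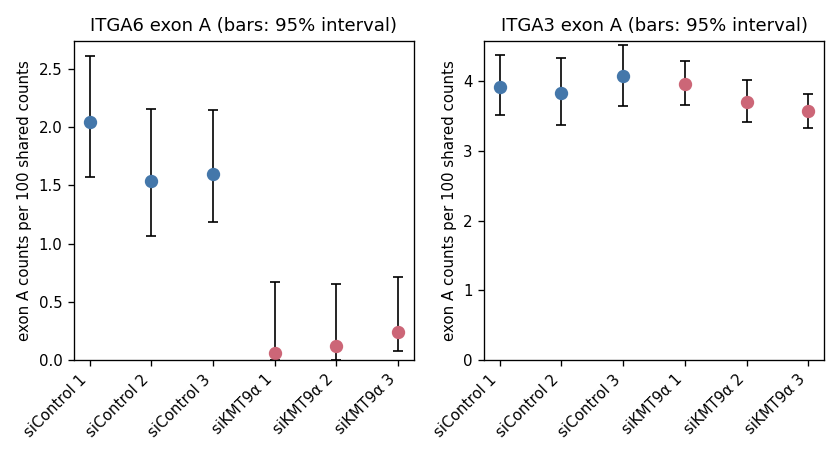
Counts of exon A per 100 counts of the rest of the transcript (vertical axes, from 0) in each of the 6 samples, for ITGA6 (left) and ITGA3 (right), with exact 95% intervals as bars. For ITGA6 the siKMT9α samples lie at 0.06 to 0.25 and the controls at 1.54 to 2.05, whereas for ITGA3 the samples of both groups lie between 3.57 and 4.07.

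A guide strand can lower other transcripts through matches of its seed, bases 2 to 8, in the 3′ UTR. The study describes more than 1 siRNA against KMT9α. Its results section gives siKMT9α#1 for the RNA sequencing, whereas the sample labels name only the target, and the search assumes siKMT9α#1. The letters complementary to its seed, ACATTCA, were searched on the transcribed strand of the 3′ UTR of each subunit and were found in 2 of the 10. Among all 12687 genes tested with a 3′ UTR, 11.8% held them at least once and 1.83% held them at 2 or more places. ITGA2, which rose, held 1 match (GRCh37 chr5:52390030-52390058), and ITGA6, which fell, held 2 (chr2:173369957-173369985 and chr2:173370263-173370291). The matches are shown with 11 bases on each side, 5′ to 3′, and the capitals mark the letters searched.
ITGA2: cccttttgtgtACATTCAggcatacccat
ITGA6, first: ttcatactgtaACATTCAggaattcttgg
ITGA6, second: tattactctatACATTCAacagagactga
The part of these matches in the levels was not tested.

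The counts in the gene lists that follow stand beside 37.1% of all genes tested called higher and 38.5% called lower. Of the other 16 integrin subunits, 11 were tested, 4 rose, 4 fell and 3 were not called (median log2 fold change -0.14). ITGB6, a β subunit of epithelia that pairs with ITGAV, had 5.5, 2.5 and 3 counts in the controls and 17.5, 16.5 and 23 counts after knock-down. The siControl samples alone would not have passed it through the filter, nor ITGA10 and ITGB2 (log2 fold change 0.96), which also rose. The groups of ITGB6 did not overlap, and it rose by 2.57 on the log2 scale (SE 0.36, adjusted p = 2.78e-06). ITGA10, a collagen-binding α subunit, rose from 0.74 ± 0.19 to 1.63 ± 0.66 CPM (log2 fold change 1.20). ITGAX, an α subunit of leukocytes, fell from 2.50 ± 0.15 to 0.97 ± 0.07 CPM (-1.35), and the collagen-binding ITGA11 fell from 3.90 ± 0.54 to 1.55 ± 0.25 CPM (-1.30). ITGA2B, ITGA8, ITGA9, ITGAD and ITGAL were under the filter on low counts, and ITGA7 (-0.36), ITGAM (-0.14) and ITGB7 (-0.03) were not called.

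The ligands of these receptors are proteins of the basement membrane and the interstitial matrix. Of 13 laminin and collagen chains, 11 were tested, 7 rose (37.1% of all genes tested), 3 fell and 1 was not called (median log2 fold change 1.23). COL4A1 rose from 32.2 ± 3.52 to 149.5 ± 3.94 CPM (log2 fold change 2.21) and COL4A2 from 179.3 ± 14.0 to 612.4 ± 24.4 CPM (1.77), both chains of basement membrane collagen. LAMB3, a β chain of laminin, fell from 52.2 ± 1.52 to 28.3 ± 0.92 CPM (-0.89), and COL1A1, a chain of fibrillar collagen, from 4.28 ± 0.29 to 2.79 ± 0.08 CPM (-0.61). COL1A2 was at 0 in all samples and LAMA1 was under the filter.

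Of 13 other ligands, 12 were tested, 8 rose (37.1% of all genes), 3 fell (38.5%) and 1 was not called (median log2 fold change 0.83). EDIL3, a secreted ligand of ITGAV receptors, rose by 1.97 on the log2 scale from 0.33 ± 0.09 CPM (under the filter in every control sample), and the microfibril protein FBN1 rose from 13.0 ± 0.75 to 46.8 ± 4.4 CPM (1.85). VTN, which encodes vitronectin, fell from 37.7 ± 2.51 to 9.88 ± 0.56 CPM (-1.93). SPP1 also fell, from 658.1 ± 61.45 to 585.5 ± 46.9 CPM (-0.168, adjusted p = 0.0245 by edgeR), with overlapping groups. The 3 ligands that fell, VTN, SPP1 and TGFB3, moved in the opposite direction to the receptor subunit ITGAV. TGFB3, a latent growth factor, fell by 0.84 on the log2 scale (adjusted p = 0.015 by edgeR). The siKMT9α samples alone (8.5, 7 and 20 counts) would not have passed it through the filter on low counts.

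Inside the cell, activators and inhibitors act on the integrin tails. Of 14, all tested, 8 fell (38.5% of all genes), 4 rose (37.1%) and 2 were not called (median log2 fold change -0.23). RAP1B, a small GTPase that promotes integrin activation, rose from 42.3 ± 0.94 to 108.9 ± 4.99 CPM (log2 fold change 1.37), and TLN2, a talin that binds β tails, rose by 0.43. CIB1, a calcium-binding protein first found on the ITGA2B tail, fell from 160.6 ± 6.36 to 97.0 ± 4.51 CPM (-0.73), and FERMT1, a kindlin of epithelia, from 27.5 ± 0.68 to 19.5 ± 0.57 CPM (-0.49). Of 16 linkers of focal adhesions, all tested, 9 rose (37.1% of all genes), 4 fell (38.5%) and 3 were not called (median log2 fold change 0.28). TNS3, a tensin, rose from 53.0 ± 2.49 to 281.9 ± 8.58 CPM (2.41) and the scaffold PXN (paxillin) from 70.8 ± 1.52 to 151.7 ± 2.30 CPM (1.10). LIMS2 fell by 0.86 on the log2 scale, and its binding partner ILK fell by 0.37.

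Of 12 membrane partners and trafficking genes of integrins, 11 were tested, 7 rose (37.1% of all genes), 2 fell (38.5%) and 2 were not called (median log2 fold change 0.17). CAV1, the coat protein of caveolae, rose from 66.0 ± 3.48 to 380.5 ± 8.11 CPM (log2 fold change 2.53), and BSG (basigin), a partner of ITGA3 and ITGA6 receptors, from 173.3 ± 3.36 to 609.2 ± 10.4 CPM (1.81). SNX17, which returns ITGB1 receptors from endosomes to the cell surface, fell from 178.5 ± 6.48 to 79.6 ± 4.12 CPM (-1.17), and the tetraspanin CD9 from 246.6 ± 12.2 to 142.6 ± 15.6 CPM (-0.79). RAB25 was under the filter.

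Of 4 other hemidesmosome genes, 3 were tested and all 3 rose (37.1% of all genes). The plakin PLEC, which ties ITGB4 to keratin, rose from 302.4 ± 19.7 to 671.2 ± 38.7 CPM (log2 fold change 1.15), DST from 233 ± 19.7 to 337.9 ± 25.0 CPM (0.54), and the tetraspanin CD151 by 0.22. COL17A1 was under the filter. For the genes counted as risen or fallen in these lists, adjusted p-values were at most 0.02535 by edgeR's quasi-likelihood test.

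**Figure D5:**
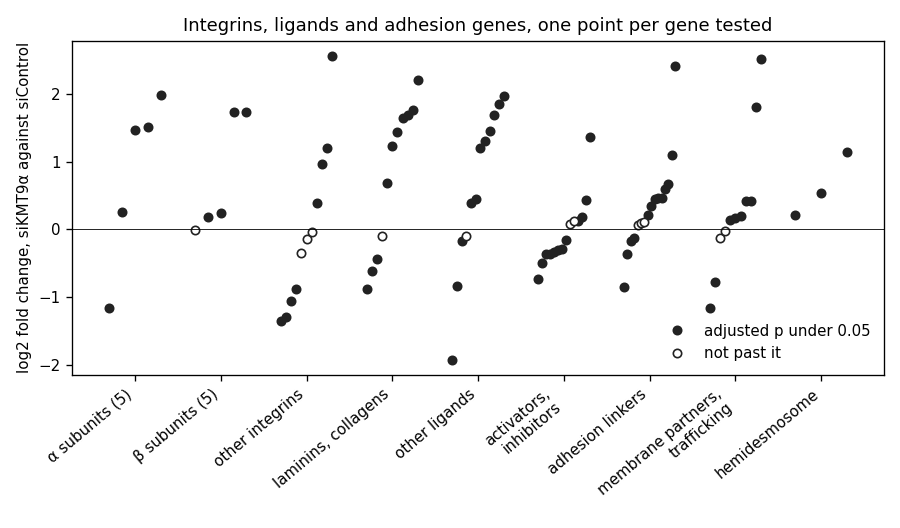
Log2 fold change of siKMT9α against siControl (vertical axis) for each gene tested, with 1 point per gene, grouped as the 5 α and 5 β subunits and the 7 lists of other integrins, ligands and adhesion genes. Filled points had an adjusted p under 0.05, and the laminin and collagen chains have the highest median of the 7 lists, 1.23.

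Profiles over the 6 samples were compared with those of ITGA2 and ITGA6 among 13079 genes, as the root mean square difference of log2 CPM after centring. The closest to ITGA2 were CLDN1, which encodes a claudin of tight junctions (0.017), the interleukin receptor IL1R1 (0.023) and the collagen chain COL11A1 (0.037). ST8SIA4, a polysialyltransferase (0.039), ERLIN2 (0.043) and C9orf43 (0.044) were closest to ITGA6. These are descriptions of likeness over 2 groups of 3 samples.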

How the data were processed

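RNA of A549 cells was sequenced for 3 siControl and 3 siKMT9α samples. The authors aligned reads to hg19 with STAR and used HOMER to count reads per RefSeq transcript. The deposited values are estimated counts, with a column for each sample, beside the transcript length. The deposited fold change (a ratio) and p-values, raw and adjusted, of an edgeR comparison by the authors were not used. Of the table's 38767 rows, 1182 without a symbol and counts were left out. HOMER's options and the strand setting are not given in the sources used here. The sources of the siRNA dose and time are the study's methods.

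Each gene was represented by the transcript with the largest summed count. Counts were rounded and tested with edgeR 4.0.16 in R 4.3.3 (TMM, filterByExpr, quasi-likelihood F test, Benjamini-Hochberg over 13877 genes). The standard error is the log2 fold change divided by the square root of F. The biological coefficient of variation was 4.47%. Ratios, sums and exon shares were compared with two-sided exact permutation tests over samples, and intervals of shares are exact binomial ones (scipy), with counts rounded up. Sequences, GC content and 3′ UTRs came from GENCODE v44 lifted to GRCh37. No protein sequences were used here.

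The subunits, gene lists and tests were chosen with earlier results of these data known. All 10 subunits were named, and in each list up to 2 genes with the largest positive and 2 with the largest negative changes among those called with non-overlapping groups. CD151, ITGB2, SPP1, ITGA7, ITGAM and ITGB7 and genes under the filter were named to account for the lists. All 6 epithelial markers were named. Alternatives were DESeq2 1.42.0, other scalings and filters, doubled counts, offsets for GC content and length, the replicate block and leaving out each sample.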

Additional observations from a re-analysis of the deposited data

How the results depend on the processing

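Over 18 alternative settings, 167 of 180 log2 fold changes of the 10 subunits kept their direction and their side of the threshold. The exceptions were ITGB1, whose call was lost under library size alone and without siControl replicate 2 or 3, and ITGB4, which was not called and whose estimate changed sign near 0. ITGB4 was at 0.0054 with DESeq2, 0.0085 with RLE factors, 0.0080 without a filter and 0.012 with doubled counts, and between -0.044 and 0.023 when a sample was left out. With length offsets it was called at -0.20, and the cause was not tested. The number of subunits called ranged from 8 to 10, and the number past the threshold of the study from 4 to 6. The log2 fold change of ITGA2 ranged from 1.68 to 2.07 and that of ITGA6 from -1.40 to -1.08. The difference in ITGA6 exon A per 100 shared counts was -1.59, and -1.68 to -1.43 when a sample was left out, an alternative chosen after seeing the data.

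Deviations of same-numbered samples from their group means were not correlated by more than 0.1 (correlations -0.08, 0.02 and -0.08), and the labels do not say that the number marks a pair. With the replicate block, 9 subunits were called and ITGA6 had a log2 fold change of -1.17, and no call of a subunit changed. Depth limits ITGB3, ITGB8 and exon A of ITGA6, which rest on few counts per sample.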
